A study of Mus musculus with 8 samples.

Results

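The genes of amino acid synthesis and transport were followed here in mouse embryonic stem (ES) cells with knockdown of eIF4A3, the RNA helicase at the core of the exon junction complex. The set was a list of 33 genes of known function, matched by gene identifier among 37310 genes counted. It holds 9 enzymes of serine, glycine and cysteine synthesis, 4 folate enzymes, 9 enzymes that make asparagine, glutamine and proline or transfer amino groups, and 11 transporters of the plasma membrane. All 33 genes were found in the count tables, and 32 passed the filter on low counts. Aldh1l2, a mitochondrial folate enzyme, did not.

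ES cells take most of their amino acids from the medium through exchangers and sodium-coupled carriers and make others from glycolytic and mitochondrial intermediates. Serine is built from 3-phosphoglycerate by Phgdh, Psat1 and Psph and is turned into glycine by Shmt1 and Shmt2, which hand a carbon unit to folate for the synthesis of nucleotides and methyl groups. Mouse ES cells are known for a further route, in which Tdh breaks down threonine to feed glycine and acetyl-CoA. When amino acids run short or translation initiation is restrained through eIF2, the transcription factor ATF4 raises many of these genes.

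RNA selected for poly-A tails was sequenced from feeder-free cells of the J1 line (strain 129S4/SvJae) and the CCE line (strain 129/Sv), with 2 libraries in each of 4 groups. J1 cells carried eIF4A3 knockdown with a control expression construct (called KD-labelled here), eIF4A3 knockdown with overexpression of Ccnb1, the gene of cyclin B1 (called KD+Ccnb1-labelled), or a control knockdown with a control expression construct (called control). CCE cells carried eIF4A3 knockdown, and no control of that line is analysed here. The labels' protocols describe transfection and lentiviral infection, then puromycin at 1 µg/mL for 2.5 days and collection on day 4.5 after infection. The medium of every group held nonessential amino acids at 100 µM and glutamine at 2 mM. Whether a group's libraries came from separate cultures is not stated, so the spread between them may be technical. The p-values rest on a spread estimated over all 6 J1 libraries together, not only on the libraries compared. Those of KD+Ccnb1-labelled against control thus also carry the spread of the KD-labelled libraries. Those of KD-labelled libraries in turn draw on the narrower spread of the other J1 libraries, so their SE and p-values may be too small.

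The KD-labelled libraries stood apart from the rest. Libraries held 4398141 and 3596615 gene counts in KD-labelled cells, 5871830 and 6620504 in KD+Ccnb1-labelled cells, 23966825 and 25574740 in CCE cells, and 5740965 and 8340023 in control. Counts of KD-labelled libraries differed from each other 23.0 times more than Poisson noise, against 1.9 times in KD+Ccnb1-labelled libraries, 5.07 times in CCE libraries and 3.37 times in control. Divided by this factor, the totals of the KD-labelled libraries were equivalent to 190843 and 156063 independent counts. Unaligned reads took 40.8% and 45.2% of the reads recorded for KD-labelled libraries and 15.7% to 15.9% for the other J1 libraries. Eif4a3 stood at 75.7 and 37.5 counts scaled to library size (CPM, from all gene counts of a library) in KD-labelled, 47.3 and 53.5 CPM in KD+Ccnb1-labelled, 48.8 and 53.9 CPM in CCE and 73.5 and 83.7 CPM in control libraries, so KD-labelled replicate 1 lay at the control level and the groups are named by their labels. The log2 fold change of Eif4a3 against control was -0.63 (SE 0.33, edgeR adjusted p = 0.211) in KD-labelled and -0.72 (SE 0.32, edgeR adjusted p = 0.190) in KD+Ccnb1-labelled libraries. Ccnb1 stood at 136 and 131 CPM in KD+Ccnb1-labelled libraries and 135 and 129 CPM in control, without reads placed on near-identical copies. The summed level of 10 ES cell markers was 4252 and 3840 CPM in KD-labelled, 7911 and 7895 CPM in KD+Ccnb1-labelled, 4014 and 4252 CPM in CCE and 8498 and 8466 CPM in control libraries, with none of the 10 at 0 in any library. Of these 10 markers, 9 were called lower in KD-labelled libraries than in control, where 17.9% of all genes were. The 9 fibroblast or feeder markers summed to 35.7 and 42.0 CPM in KD-labelled, 33 and 33.7 CPM in KD+Ccnb1-labelled, 181 and 254 CPM in CCE and 15.5 and 11.3 CPM in control libraries, and 4 to 6 of them were at 0 in each J1 library. The 8 primitive endoderm markers summed to 159 and 194 CPM in KD-labelled, 221 and 219.8 CPM in KD+Ccnb1-labelled, 303 and 381 CPM in CCE and 72.8 and 76.0 CPM in control libraries, and the 7 trophectoderm markers to 36.8 and 66.5, 54.0 and 57.5, 220.3 and 281, and 33.1 and 34.2 CPM in the same order. The 4 neuroectoderm markers summed to 39.3 and 56.4 CPM in KD-labelled, 198 and 197 CPM in KD+Ccnb1-labelled, 87.4 and 84.9 CPM in CCE and 153 and 137 CPM in control libraries, and the 5 mesoderm markers stayed between 1.67 and 21.6 CPM. Single genes made up much of several of these sums. Lama1 gave 97.3 and 160 CPM of the primitive endoderm sum in KD-labelled and 60.6 and 60.7 CPM in control libraries. Tubb3 gave 26.4 and 29.5 CPM of the neuroectoderm sum in KD-labelled and 124 and 109 CPM in control libraries. Acta2 gave 133 and 213 CPM of the fibroblast or feeder sum in CCE libraries. The sums thus do not show that a list moved as a whole. In bulk RNA, a change in the share of a cell type and a change of RNA per cell cannot be told apart. The part of these differences between libraries in the results below was not tested.

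The promoters of 5 of the genes held the 8 letters TGATGNAA, the core of the C/EBP-ATF response element to which ATF4 binds. The search covered both strands of 300 bases per promoter, 250 before and 50 after the start, in RefSeq promoters of build GRCm38.p6. Promoters were given for 26 of the 33 genes. The letters were in 5 of their 33 promoters (15.2%), in 1304 of all 32851 promoters (3.97%), in 290 of the 13043 promoters of genes tested (2.22%) and in 6 of 23 promoters of a list of ATF4 pathway genes (26.1%). The 5 sequences are shown because these are the promoters where the letters were found, and their genes did not move alike. Each runs from 120 bases before the start to 10 bases from it, on the minus strand, with the matched letters in capitals (TTGCATCA is a match on the opposite strand). The regions are chr6:7693200-7693329 for Asns, chr11:120643739-120643868 for Pycr1, chr19:43524596-43524725 for Got1, chr3:50443604-50443733 for Slc7a11 and chr11:20332704-20332833 for Slc1a4.

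Asns: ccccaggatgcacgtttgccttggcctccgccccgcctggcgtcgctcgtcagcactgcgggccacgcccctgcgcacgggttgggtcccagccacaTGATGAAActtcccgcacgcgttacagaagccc
Pycr1: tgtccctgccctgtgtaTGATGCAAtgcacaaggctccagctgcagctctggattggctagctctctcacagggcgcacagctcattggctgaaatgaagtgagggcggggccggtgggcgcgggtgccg
Got1: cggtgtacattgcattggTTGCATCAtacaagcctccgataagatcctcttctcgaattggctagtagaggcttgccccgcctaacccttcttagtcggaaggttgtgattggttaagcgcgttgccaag
Slc7a11: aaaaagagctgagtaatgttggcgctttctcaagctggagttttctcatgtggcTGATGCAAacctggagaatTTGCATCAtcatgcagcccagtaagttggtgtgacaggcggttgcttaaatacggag
Slc1a4: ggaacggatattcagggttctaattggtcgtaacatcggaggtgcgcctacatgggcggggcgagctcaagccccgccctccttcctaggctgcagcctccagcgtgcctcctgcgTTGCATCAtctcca

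Counting the start base as 0, the match in Asns lies at -23 to -16, that in Pycr1 at -103 to -96, that in Got1 at -102 to -95 and that in Slc1a4 at -4 to 3. Slc7a11 holds a match at -66 to -59 and another on the opposite strand at -47 to -40. Between KD-labelled libraries and control, Asns was called higher and Got1 lower, and Pycr1, Slc7a11 and Slc1a4 were not called. The match is a description of letters and no measure of binding.

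In KD-labelled cells the leucine exchanger Slc7a5, the arginine carriers Slc7a1 and Slc7a3, the glutamine carrier Slc38a1 and the enzymes Psat1, Shmt1, Shmt2, Got2 and Glul were among the genes that fell against control, while Asns, Tdh and the carrier Slc38a2 rose. Tdh was not called once reads on its processed pseudogene were added. Of the 32 genes tested, 16 (50.0%) fell and 3 rose, where 17.9% of all 14462 genes were called lower and 11.0% higher, 28.9% in all (edgeR quasi-likelihood test, Benjamini-Hochberg adjusted p under 0.05). With only the 2 groups compared in the edgeR fit, 10 genes of the set were called lower and 1 higher. In that fit 1020 of 13320 genes tested were called lower and 740 higher. Both KD-labelled libraries lay below both control libraries for 18 of the 32 and above them for 9, where 31.4% and 30.9% of all genes did. The median log2 fold change was -0.53 over the 32 genes and -0.08 over all genes tested. The 32 genes were also more abundant than most, with a median level of 84.4 CPM over the J1 libraries against 26.9 CPM for all genes tested, and the part of abundance in the share called was not tested. The summed level of the 33 genes was 4548 and 4511 CPM in KD-labelled libraries, against 5435 and 5442 CPM in control.

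In KD+Ccnb1-labelled cells none of the 32 genes was called higher than control by edgeR, where 9.35% of all genes were, and 12 (37.5%) fell, where 10.5% of all genes did (19.8% were called in all). At an unadjusted p under 0.05, 1 gene was higher. DESeq2 called 1 gene higher and limma with a weight per group called 2. With only the 2 groups compared in the edgeR fit, 2 genes were called higher and 17 lower. A gene not called here is therefore not shown to be unchanged. Both KD+Ccnb1-labelled libraries lay below both control libraries for 19 genes and above them for 9, where 33.7% and 45.3% of all genes did. The median was -0.34, against 0.07 over all genes tested. The summed level was 4228 and 4217 CPM in KD+Ccnb1-labelled libraries, against 5435 and 5442 CPM in control. The sums leave out reads on processed pseudogenes, whose share for Tdh, Got2 and Glul was highest in KD+Ccnb1-labelled libraries. With those reads added, the KD+Ccnb1-labelled sums no longer lay below the KD-labelled sums, and both groups stayed below control. Between KD+Ccnb1-labelled and KD-labelled libraries, 9 genes (28.1%) rose and 11 (34.4%) fell, where 22.8% of all genes rose and 16.0% fell (38.8% in all). The libraries of these groups did not overlap for 14 genes that were lower in KD+Ccnb1-labelled cells and 12 that were higher, where 31.4% and 39.1% of all genes did so. The 3 comparisons share libraries, so their values are set side by side and are not independent of each other.

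**Figure D1:**
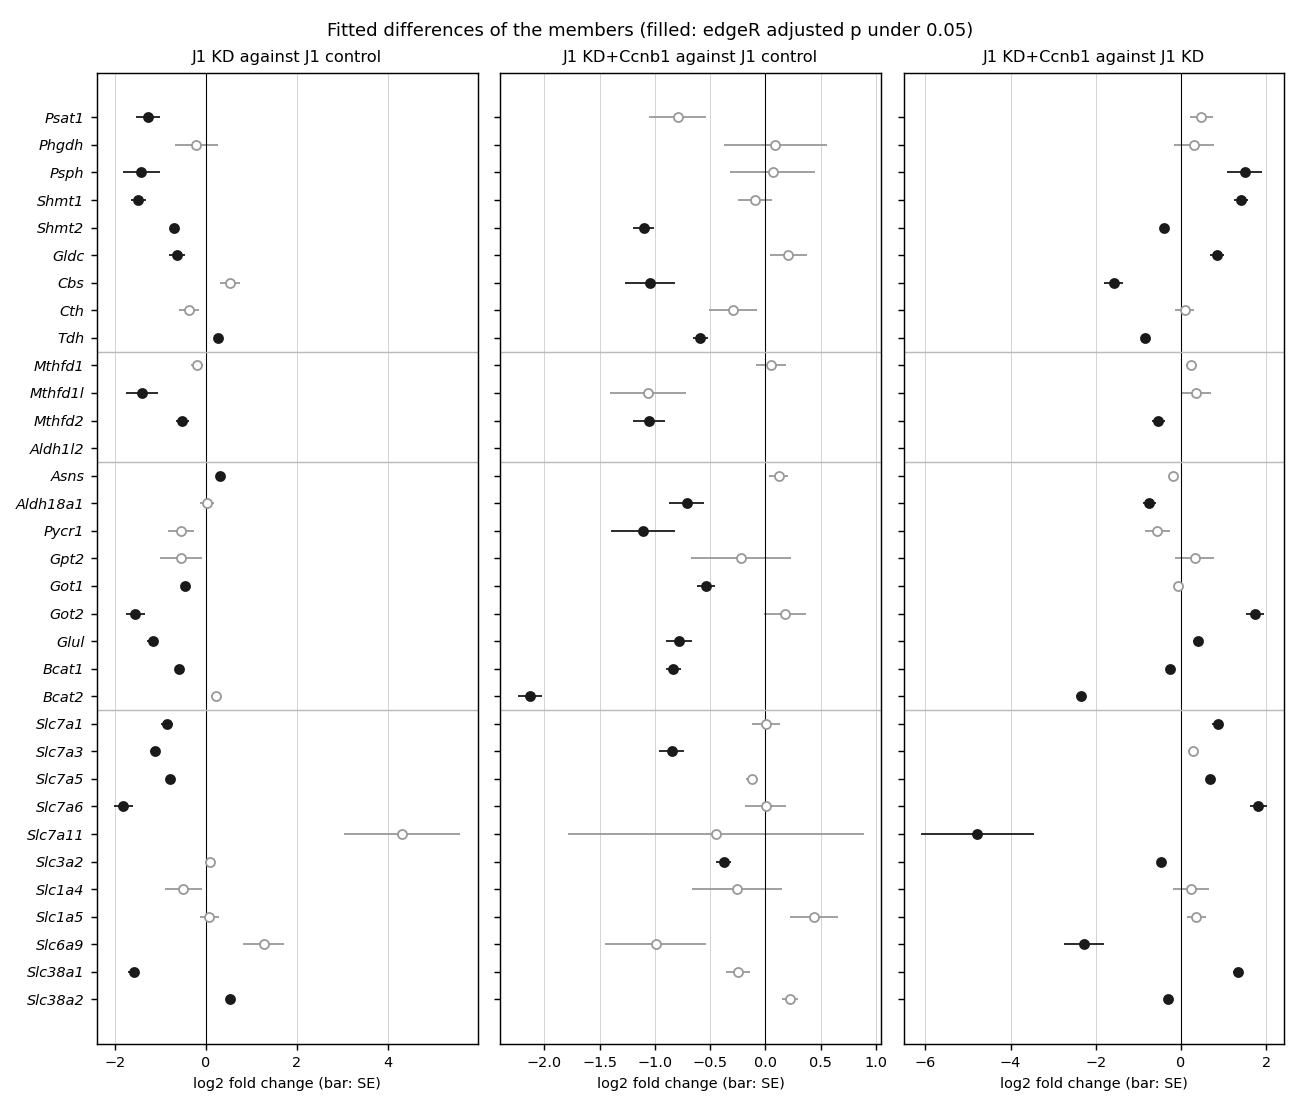
Log2 fold change with its standard error (horizontal axis) of the 32 genes tested, in rows by role, for KD-labelled against control, KD+Ccnb1-labelled against control and KD+Ccnb1-labelled against KD-labelled libraries. Filled points passed an edgeR adjusted p of 0.05, the panels differ in scale, and the row of Aldh1l2, which was not tested, is empty. In the panel for KD-labelled against control 16 filled points lie left of 0 and 3 right of it, and in that for KD+Ccnb1-labelled against control 12 lie left and 0 right.

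Combining the calls, 8 genes were called lower in KD-labelled libraries than in control, were not called between KD+Ccnb1-labelled libraries and control, and were called higher in KD+Ccnb1-labelled than in KD-labelled libraries. These were Psph, Shmt1, Gldc, Got2, Slc7a1, Slc7a5, Slc7a6 and Slc38a1. The share of all genes tested with this or the other patterns was not counted, so these numbers cannot be set against it. With its processed pseudogene added, Got2 was called higher in KD+Ccnb1-labelled cells than in control (1.1, edgeR adjusted p = 0.00173). The KD-labelled calls of Psph and Gldc were lost in most alternative analyses, as given below. Another 4, Aldh18a1, Cbs, Bcat2 and Slc3a2, were not called in KD-labelled cells and fell in KD+Ccnb1-labelled cells against each of the other J1 groups. Shmt2, Mthfd2 and Bcat1 fell in all 3 comparisons. Got1 and Slc7a3 were called lower against control in the KD-labelled and KD+Ccnb1-labelled groups and were not called between them. In 6 genes, Phgdh, Mthfd1, Gpt2, Cth, Slc1a4 and Slc1a5, no comparison passed the threshold.

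**Figure D2:**
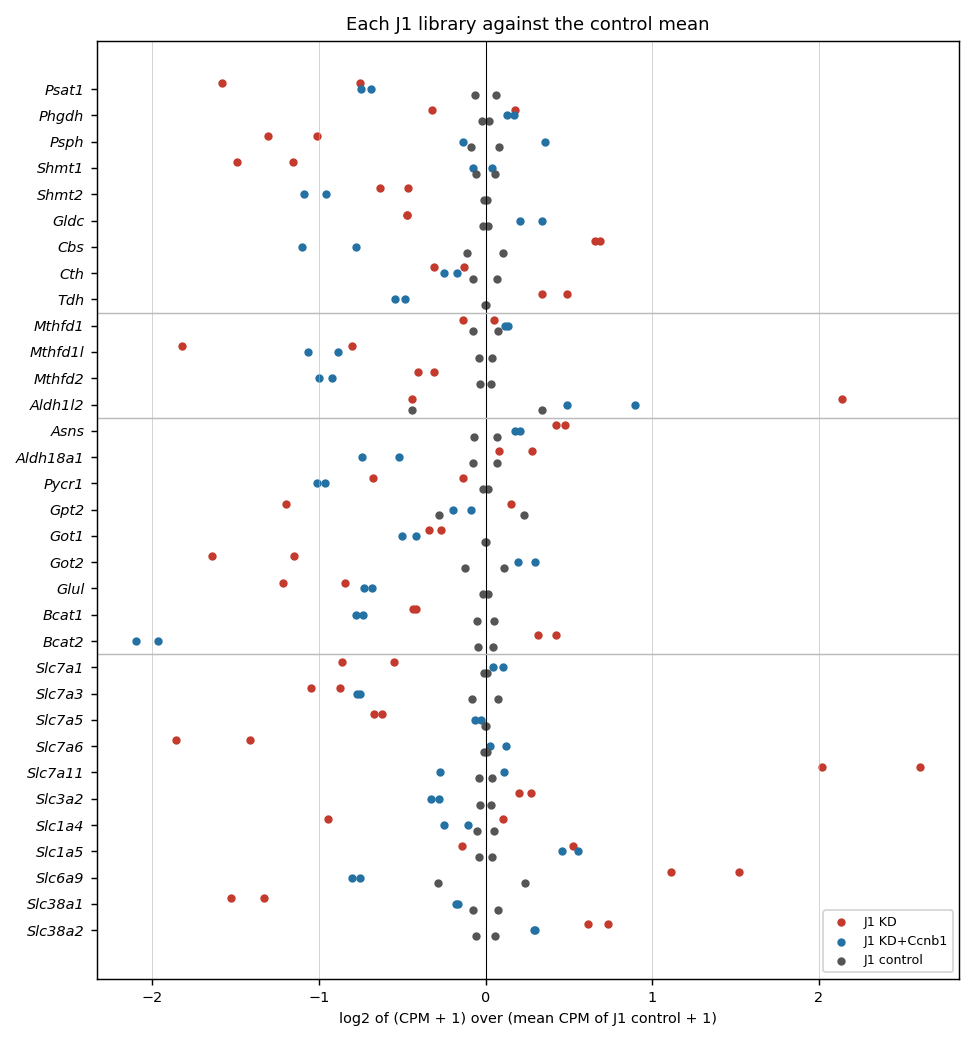
Level of each gene in each J1 library relative to control, as log2 of (CPM + 1) over (mean control CPM + 1) on the horizontal axis, with genes in rows by role and each point a library, coloured by group. For Slc7a6, Slc38a1, Got2 and Shmt1 both KD-labelled points lie far left of 0 and both KD+Ccnb1-labelled points near it, and for Bcat2 and Cbs the KD+Ccnb1-labelled points lie far left.

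Among the enzymes of serine, glycine and cysteine synthesis, 5 of 9 fell and 1 rose in KD-labelled cells against control (median log2 fold change -0.64). In KD+Ccnb1-labelled cells 3 fell and none rose against control (median -0.29). Of all genes tested, 17.9% fell and 11.0% rose in KD-labelled cells, and 10.5% fell and 9.35% rose in KD+Ccnb1-labelled cells. The summed level of these 9 was 1134 and 1174 CPM in KD-labelled, 889 and 902 CPM in KD+Ccnb1-labelled and 1337 and 1312 CPM in control libraries. With reads on the processed pseudogenes of Psat1, Phgdh and Tdh added, the KD-labelled and KD+Ccnb1-labelled sums overlapped.

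Of the route from 3-phosphoglycerate to serine, Psat1 and Psph fell in KD-labelled cells and Phgdh was not called. Psat1 (ENSMUSG00000024640), the phosphoserine aminotransferase, had 90.04 and 160.2 CPM in KD-labelled, 168 and 161 CPM in KD+Ccnb1-labelled and 283 and 259 CPM in control libraries. The KD-labelled libraries differed widely from each other, and both lay below control. The log2 fold change in KD-labelled cells was -1.27 (SE 0.26, edgeR adjusted p = 0.0195), and that in KD+Ccnb1-labelled cells, -0.79 (SE 0.26, edgeR adjusted p = 0.0850), did not pass. Psph (ENSMUSG00000029446), the phosphatase that releases serine, had 7.05 and 5.56 CPM in KD-labelled, 13.8 and 19.8 CPM in KD+Ccnb1-labelled and 16.2 and 14.3 CPM in control libraries. It fell in KD-labelled cells (-1.42, SE 0.40, edgeR adjusted p = 0.0472) and rose in KD+Ccnb1-labelled against KD-labelled cells (1.49, SE 0.40, edgeR adjusted p = 0.0330). The KD-labelled count of Psph is equivalent to only 2.21 independent counts, and Psph overlaps Cct6a in the annotation, so reads of the pair may be mixed. Phgdh (ENSMUSG00000053398), the dehydrogenase of the opening step, was between 6.59 and 9.73 CPM over the J1 libraries and passed no test. Most reads of this gene and its copies lay on processed pseudogenes in 5 of 6 J1 libraries, as described below.

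The cytosolic and mitochondrial serine hydroxymethyltransferases, which make glycine from serine, both fell in KD-labelled cells. Shmt1 (ENSMUSG00000020534), the cytosolic enzyme, had 40.2 and 51.2 CPM in KD-labelled, 109.5 and 118 CPM in KD+Ccnb1-labelled and 111 and 119.7 CPM in control libraries. It was low in both KD-labelled libraries, and the other groups overlapped. Its log2 fold change against control was -1.49 (SE 0.16, edgeR adjusted p = 0.00279) in KD-labelled and -0.09 (SE 0.15, edgeR adjusted p = 0.740) in KD+Ccnb1-labelled cells, and between KD+Ccnb1-labelled and KD-labelled cells it was 1.40 (SE 0.16, edgeR adjusted p = 0.00221). Shmt2 (ENSMUSG00000025403), the mitochondrial enzyme, had 216 and 242 CPM in KD-labelled, 172 and 157 CPM in KD+Ccnb1-labelled and 337 and 333 CPM in control libraries. The groups did not overlap, with KD+Ccnb1-labelled lowest. The log2 fold changes of Shmt2 against control were -0.71 (SE 0.09, edgeR adjusted p = 0.00532) in KD-labelled and -1.10 (SE 0.09, edgeR adjusted p = 0.00192) in KD+Ccnb1-labelled cells. Between KD+Ccnb1-labelled and KD-labelled cells Shmt2 had -0.39 (SE 0.10, edgeR adjusted p = 0.0238), and with an offset for GC content and annotated exon length this value was 0.18.

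The decarboxylase of the glycine cleavage system and the threonine dehydrogenase were called in opposite directions in KD-labelled cells. Each of these calls was lost in most alternative analyses, as given below. Gldc (ENSMUSG00000024827), the decarboxylase, had 31.1 and 31.1 CPM in KD-labelled, 50.4 and 55.4 CPM in KD+Ccnb1-labelled and 44.1 and 43.2 CPM in control libraries. It fell in KD-labelled cells against control (-0.64, SE 0.17, edgeR adjusted p = 0.0414) and was higher in KD+Ccnb1-labelled than in KD-labelled cells (0.84, SE 0.17, edgeR adjusted p = 0.0142). Tdh (ENSMUSG00000021953), the threonine dehydrogenase, had 663 and 596 CPM in KD-labelled, 324 and 337 CPM in KD+Ccnb1-labelled and 473 and 471 CPM in control libraries. KD-labelled libraries were highest and KD+Ccnb1-labelled libraries lowest, with no overlap. The log2 fold changes of Tdh were 0.26 (SE 0.07, edgeR adjusted p = 0.0382) in KD-labelled and -0.59 (SE 0.07, edgeR adjusted p = 0.00438) in KD+Ccnb1-labelled cells against control, and neither was called once the counts of its processed pseudogene were added, as described below.

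Of the transsulfuration enzymes, which make cysteine from homocysteine, 1 of 2 moved. Cbs (ENSMUSG00000024039), cystathionine beta-synthase, had 52.1 and 53.1 CPM in KD-labelled, 14.6 and 18.6 CPM in KD+Ccnb1-labelled and 35.2 and 30.1 CPM in control libraries. It fell in KD+Ccnb1-labelled cells against control (-1.05, SE 0.23, edgeR adjusted p = 0.0286) and against KD-labelled cells (-1.58, SE 0.23, edgeR adjusted p = 0.00470). In KD-labelled cells against control its log2 fold change was 0.53 (SE 0.22, edgeR adjusted p = 0.131), although both libraries lay above control. Cth (ENSMUSG00000028179), the lyase of the next step, stayed between 24.7 and 32.5 CPM in all J1 libraries and passed no test.

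Of the 3 folate enzymes tested, Mthfd1l and Mthfd2 of the mitochondrion fell in KD-labelled cells and Mthfd1 of the cytosol passed no test. Mthfd1l (ENSMUSG00000040675), the formate-producing enzyme, had 20.5 and 42.5 CPM in KD-labelled, 40.2 and 35.3 CPM in KD+Ccnb1-labelled and 77.0 and 73.1 CPM in control libraries. The KD-labelled and KD+Ccnb1-labelled groups lay below control, and they overlapped each other. The log2 fold changes of Mthfd1l were -1.41 (SE 0.35, edgeR adjusted p = 0.0344) in KD-labelled and -1.07 (SE 0.34, edgeR adjusted p = 0.0863) in KD+Ccnb1-labelled cells. Mthfd2 (ENSMUSG00000005667), the mitochondrial methylenetetrahydrofolate dehydrogenase, had 59.3 and 63.4 CPM in KD-labelled, 39.0 and 41.2 CPM in KD+Ccnb1-labelled and 80.8 and 77.0 CPM in control libraries. The groups did not overlap, and its log2 fold changes against control were -0.52 (SE 0.14, edgeR adjusted p = 0.0459) in KD-labelled and -1.05 (SE 0.15, edgeR adjusted p = 0.00733) in KD+Ccnb1-labelled cells. Mthfd1 (ENSMUSG00000021048) lay between 68.7 and 82.9 CPM in all J1 libraries. Aldh1l2 (ENSMUSG00000020256) had 22 and 0 counts in KD-labelled, 9 and 6 in KD+Ccnb1-labelled and 0 and 6 in control libraries, too few for a comparison at this depth, and it overlaps D10Wsu102e in the annotation.

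Of the 9 enzymes of asparagine, glutamine and proline synthesis and of amino group transfer, 4 fell and 1 rose in KD-labelled cells against control (median log2 fold change -0.54), and 6 fell and none rose in KD+Ccnb1-labelled cells against control (median -0.71). The shares of all genes tested were 17.9% and 11.0% in KD-labelled and 10.5% and 9.35% in KD+Ccnb1-labelled cells, in that order. Their summed level was 1564 and 1468 CPM in KD-labelled, 1330 and 1339 CPM in KD+Ccnb1-labelled and 1988 and 2030 CPM in control libraries. With reads on the processed pseudogenes of Got2 and Glul added, the KD+Ccnb1-labelled sums lay above the KD-labelled sums and below control.

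The genes of the amide-forming synthetases were called in opposite directions in KD-labelled cells. Asns (ENSMUSG00000029752), asparagine synthetase and a well-known target of ATF4, had 221 and 212 CPM in KD-labelled, 183 and 179 CPM in KD+Ccnb1-labelled and 165 and 150.4 CPM in control libraries. KD-labelled libraries were highest, and KD+Ccnb1-labelled libraries also lay above control. The log2 fold change of Asns was 0.30 (SE 0.08, edgeR adjusted p = 0.0464) in KD-labelled cells, just past the threshold, and 0.12 (SE 0.08, edgeR adjusted p = 0.387) in KD+Ccnb1-labelled cells. Glul (ENSMUSG00000026473), glutamine synthetase, had 394 and 305 CPM in KD-labelled, 428 and 442 CPM in KD+Ccnb1-labelled and 701 and 716 CPM in control libraries. Glul lay far below control in the KD-labelled and KD+Ccnb1-labelled groups, with -1.17 (SE 0.12, edgeR adjusted p = 0.00229) in KD-labelled and -0.78 (SE 0.12, edgeR adjusted p = 0.00919) in KD+Ccnb1-labelled cells.

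The proline enzymes Aldh18a1, which makes the glutamate semialdehyde, and Pycr1, which reduces it to proline in its cyclic form, fell in KD+Ccnb1-labelled cells against control. Aldh18a1 (ENSMUSG00000025007) had 96.6 and 84.2 CPM in KD-labelled, 47.2 and 55.1 CPM in KD+Ccnb1-labelled and 75.4 and 83.6 CPM in control libraries. Pycr1 (ENSMUSG00000025140) had 28.0 and 18.9 CPM in KD-labelled, 15.3 and 14.8 CPM in KD+Ccnb1-labelled and 30.5 and 31.2 CPM in control libraries. KD+Ccnb1-labelled libraries were lowest for both genes, with log2 fold changes against control of -0.71 (SE 0.16, edgeR adjusted p = 0.0301) for Aldh18a1 and -1.11 (SE 0.29, edgeR adjusted p = 0.0478) for Pycr1.

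Both aminotransferases of the branched-chain amino acids fell in KD+Ccnb1-labelled cells. Bcat2 (ENSMUSG00000030826), the mitochondrial enzyme, had 206 and 191 CPM in KD-labelled, 35.1 and 38.5 CPM in KD+Ccnb1-labelled and 158 and 149 CPM in control libraries. It was low in KD+Ccnb1-labelled libraries only among the J1 groups, and its log2 fold change there was -2.13 against control (SE 0.11, edgeR adjusted p = 0.000594) and -2.35 against KD-labelled cells (SE 0.11, edgeR adjusted p = 0.000186). This was the lowest log2 fold change of the 32 genes against control in these cells. Bcat1 (ENSMUSG00000030268), the cytosolic enzyme, had 392 and 396 CPM in KD-labelled, 318 and 309 CPM in KD+Ccnb1-labelled and 512 and 549 CPM in control libraries. Its groups did not overlap, and it fell against control in KD-labelled (-0.58, SE 0.07, edgeR adjusted p = 0.00321) and KD+Ccnb1-labelled cells (-0.83, SE 0.07, edgeR adjusted p = 0.00160).

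The aspartate aminotransferases, which work in the cytosol (Got1) and the mitochondrion (Got2), both fell in KD-labelled cells. Got1 (ENSMUSG00000025190) had 166 and 174 CPM in KD-labelled, 148 and 157 CPM in KD+Ccnb1-labelled and 209 and 210.4 CPM in control libraries. Its log2 fold changes were -0.46 (SE 0.08, edgeR adjusted p = 0.0137) in KD-labelled and -0.54 (SE 0.08, edgeR adjusted p = 0.0104) in KD+Ccnb1-labelled cells. Got2 (ENSMUSG00000031672) had 38.0 and 26.7 CPM in KD-labelled, 106 and 98.2 CPM in KD+Ccnb1-labelled and 92.7 and 78.5 CPM in control libraries, so the KD-labelled libraries alone were low. The log2 fold change of Got2 was -1.55 (SE 0.21, edgeR adjusted p = 0.00511) in KD-labelled cells against control and 1.73 (SE 0.21, edgeR adjusted p = 0.00243) in KD+Ccnb1-labelled against KD-labelled cells. Gpt2 (ENSMUSG00000031700), the mitochondrial alanine aminotransferase, had 22.5 and 58.9 CPM in the KD-labelled libraries and passed no test.

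**Figure D3:**
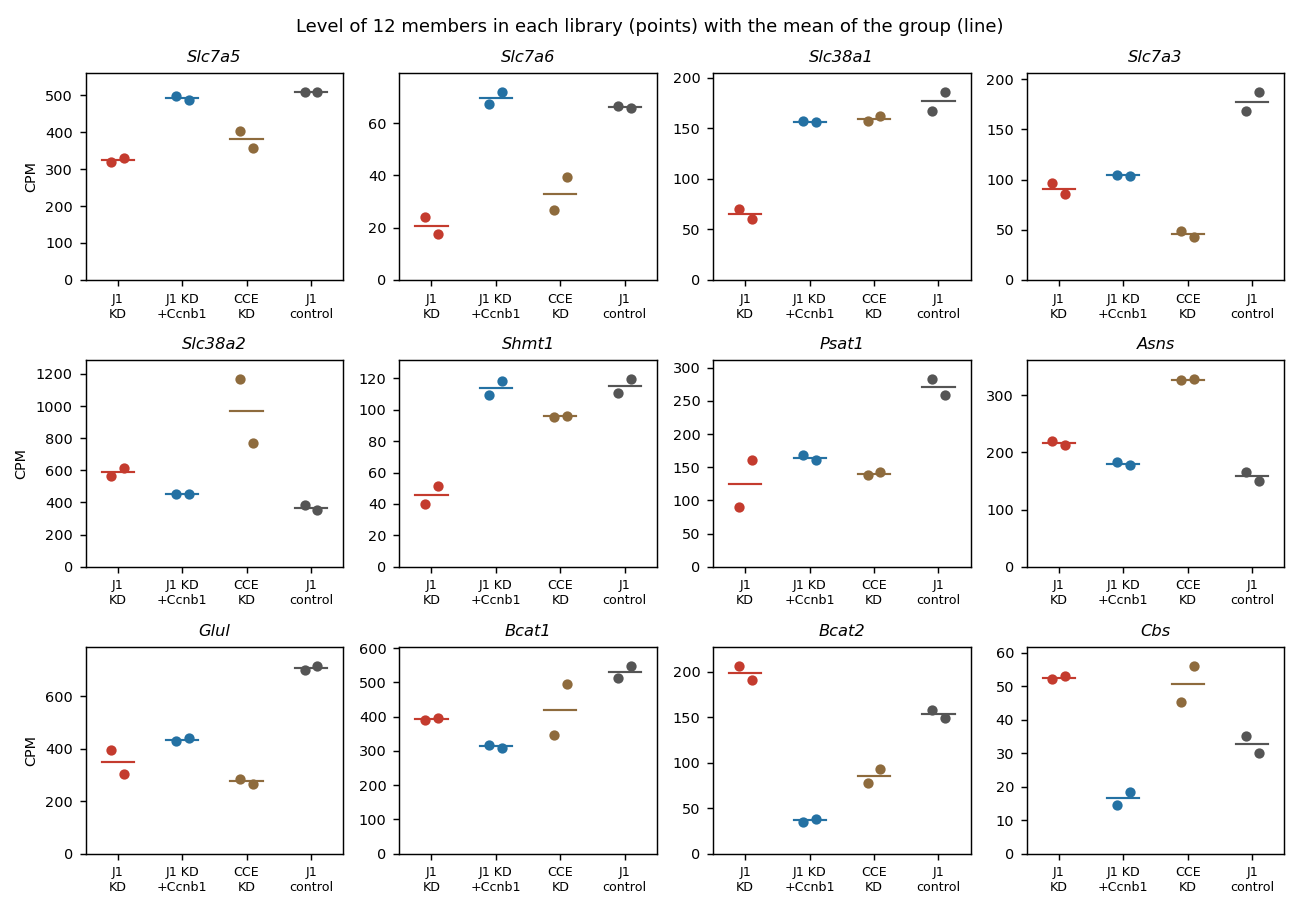
CPM per library of 12 of the genes, with KD-labelled, KD+Ccnb1-labelled, CCE and control libraries from left to right, each point a library. Slc7a6, Slc38a1 and Shmt1 are low in both KD-labelled libraries, Bcat2 and Cbs are low in both KD+Ccnb1-labelled libraries, and Glul, Slc7a3 and Bcat1 lie below control in all KD-labelled and KD+Ccnb1-labelled libraries.

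Of the 11 transporters, 5 fell and 1 rose in KD-labelled cells against control (median log2 fold change -0.50), and 2 fell and none rose in KD+Ccnb1-labelled cells against control (median -0.25). Among all genes tested, 17.9% fell and 11.0% rose in KD-labelled cells, and 10.5% fell and 9.35% rose in KD+Ccnb1-labelled cells. Between KD+Ccnb1-labelled and KD-labelled cells 4 rose and 4 fell, where 22.8% of all genes rose and 16.0% fell. Their summed level was 1687 and 1695 CPM in KD-labelled, 1846 and 1816 CPM in KD+Ccnb1-labelled and 1881 and 1870 CPM in control libraries.

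Cationic amino acids such as arginine and lysine enter through Slc7a1 and Slc7a3, and both fell in KD-labelled cells. Slc7a1 (ENSMUSG00000041313) had 86.6 and 108 CPM in KD-labelled, 170.3 and 163 CPM in KD+Ccnb1-labelled and 159 and 157 CPM in control libraries. It was low in KD-labelled libraries alone, with -0.86 against control (SE 0.13, edgeR adjusted p = 0.00796) and 0.86 in KD+Ccnb1-labelled against KD-labelled cells (SE 0.13, edgeR adjusted p = 0.00547). Slc7a3 (ENSMUSG00000031297) had 96.6 and 85.4 CPM in KD-labelled, 105 and 103 CPM in KD+Ccnb1-labelled and 168 and 187 CPM in control libraries. It stayed below control in the KD-labelled and KD+Ccnb1-labelled groups, with -1.12 (SE 0.11, edgeR adjusted p = 0.00239) in KD-labelled and -0.85 (SE 0.11, edgeR adjusted p = 0.00643) in KD+Ccnb1-labelled cells.

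Of the light chains that pair with the glycoprotein Slc3a2, Slc7a5 and Slc7a6 fell in KD-labelled cells, and Slc3a2 was not called there. Slc7a5 (ENSMUSG00000040010), the LAT1 exchanger of large neutral amino acids such as leucine, had 319 and 330.0 CPM in KD-labelled, 498 and 486 CPM in KD+Ccnb1-labelled and 508 and 508 CPM in control libraries. Its log2 fold change was -0.80 (SE 0.06, edgeR adjusted p = 0.000884) in KD-labelled cells against control, -0.12 (SE 0.06, edgeR adjusted p = 0.212) in KD+Ccnb1-labelled cells against control and 0.68 (SE 0.06, edgeR adjusted p = 0.000915) between KD+Ccnb1-labelled and KD-labelled cells. Slc7a6 (ENSMUSG00000031904), an exchanger of cationic for neutral amino acids, had 24.1 and 17.5 CPM in KD-labelled, 67.3 and 71.9 CPM in KD+Ccnb1-labelled and 66.4 and 65.7 CPM in control libraries. Both light chains were low in KD-labelled libraries, and for Slc7a6 the log2 fold change against control was -1.82 (SE 0.20, edgeR adjusted p = 0.00304), the lowest of the 32. The KD-labelled counts of Slc7a6 are equivalent to 7.33 independent counts. Slc3a2 (ENSMUSG00000010095), the heavy chain, had 372 and 354 CPM in KD-labelled, 254 and 245 CPM in KD+Ccnb1-labelled and 315 and 300.1 CPM in control libraries. It was not called in KD-labelled cells (0.08, SE 0.07, edgeR adjusted p = 0.399) and fell in KD+Ccnb1-labelled cells against control (-0.38, SE 0.07, edgeR adjusted p = 0.0154).

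Slc7a11 (ENSMUSG00000027737), the xCT light chain that imports cystine, was near the detection limit in J1 cells. It had 28 and 14 counts in KD-labelled, 0 and 2 in KD+Ccnb1-labelled and 1 and 2 in control libraries, against 165 and 280 in the deeper CCE libraries. The KD-labelled libraries were above all other J1 libraries, with a ratio to control of 24.7 (exact 95% interval 7.88 to 124, for counting error only). With counts divided by the spread of each group, this interval was 1.06 to 2173. The edgeR test did not call it against control (adjusted p = 0.0536) and called it lower in KD+Ccnb1-labelled than in KD-labelled cells (adjusted p = 0.0358), where the ratio was 0.0305 (exact 95% interval 0.00357 to 0.117). With counts divided by the spread of each group, that interval was 0.000581 to 0.648, from the equivalent of 1.05 and 1.82 independent counts.

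The sodium-coupled neutral carriers of the Slc38 family were called in opposite directions in KD-labelled cells. Slc38a1 (ENSMUSG00000023169), the SNAT1 glutamine carrier, had 69.8 and 60.6 CPM in KD-labelled, 157 and 156 CPM in KD+Ccnb1-labelled and 168 and 186 CPM in control libraries. Slc38a2 (ENSMUSG00000022462), the SNAT2 carrier, known to rise when amino acids are withdrawn, had 565 and 612 CPM in KD-labelled, 450.3 and 451 CPM in KD+Ccnb1-labelled and 382 and 354 CPM in control libraries. KD-labelled libraries were thus lowest of the J1 groups for Slc38a1 and highest for Slc38a2. Against control, Slc38a1 had -1.59 (SE 0.12, edgeR adjusted p = 0.000855) in KD-labelled and -0.25 (SE 0.11, edgeR adjusted p = 0.180) in KD+Ccnb1-labelled cells. Slc38a2 had 0.52 (SE 0.07, edgeR adjusted p = 0.00616) in KD-labelled and 0.22 (SE 0.07, edgeR adjusted p = 0.0941) in KD+Ccnb1-labelled cells.

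Of the other carriers, Slc6a9 (ENSMUSG00000028542), the glycine transporter GlyT1, had 18.2 and 24.5 CPM in KD-labelled, 4.26 and 4.08 CPM in KD+Ccnb1-labelled and 6.27 and 9.47 CPM in control libraries. It was highest in KD-labelled libraries, and only the difference between KD+Ccnb1-labelled and KD-labelled cells passed the test (-2.27, SE 0.47, edgeR adjusted p = 0.0150). Slc6a9 overlaps Ccdc24 in the annotation, so reads of the pair may be mixed. The small neutral amino acid exchangers Slc1a4 and Slc1a5 passed no test. Their KD-labelled libraries differed widely, with 11.8 and 25.6 CPM for Slc1a4 (ENSMUSG00000020142) and 118 and 74.0 CPM for Slc1a5 (ENSMUSG00000001918).

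Part of the reads of 5 of the genes fell on processed pseudogenes, copies of the mRNA at other sites, which match the gene over at least 1000 bases at 90% identity or more. The genes were Psat1, Phgdh, Got2, Glul and Tdh. For Tdh, the copy Gm13929 took 39.6% and 32.2% of the joint count in KD-labelled, 60.5% and 61.3% in KD+Ccnb1-labelled, 0.0316% and 0.0318% in CCE and 44.8% and 44.8% in control libraries. For Got2, the copy Got2-ps1 took 32.7% and 52.2% in KD-labelled, 70.9% and 73.0% in KD+Ccnb1-labelled, 0.416% and 0.832% in CCE and 46.2% and 47.9% in control libraries. The share was thus highest in KD+Ccnb1-labelled libraries and near 0 in CCE libraries for both genes. For Phgdh, 6 copies took 82.6% and 18.6% in KD-labelled, 76.3% and 78.9% in KD+Ccnb1-labelled, 0% and 0% in CCE and 70.6% and 75.7% in control libraries. Of these copies, only Gm13337 and Gm5847 held reads, and their parts differed between groups. Gm13337 had 113 and 8 counts in KD-labelled, 4 and 2 in KD+Ccnb1-labelled and 2 and 24 in control libraries. Gm5847 had 25 and 0, 180 and 230, and 113 and 200 counts in the same order. Joint levels of Phgdh were 38.0 and 11.96 CPM in KD-labelled, 41.0 and 44.4 CPM in KD+Ccnb1-labelled, 9.93 and 16.6 CPM in CCE and 28.4 and 35.5 CPM in control libraries.

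With the copies added, Tdh was at 1098 and 879 CPM in KD-labelled, 819 and 870 CPM in KD+Ccnb1-labelled and 856 and 853 CPM in control libraries, and all 3 of its calls were lost, with log2 fold changes of 0.05 (edgeR adjusted p = 0.736) in KD-labelled and -0.09 (edgeR adjusted p = 0.602) in KD+Ccnb1-labelled cells against control. Got2 with its copy was at 56.4 and 55.9 CPM in KD-labelled, 363 and 364 CPM in KD+Ccnb1-labelled and 172 and 151 CPM in control libraries. Its fall in KD-labelled cells held (-1.68, edgeR adjusted p = 0.000530), and it was now called higher in KD+Ccnb1-labelled cells than in control (1.1, edgeR adjusted p = 0.00173). Glul kept its calls, with -1.21 (edgeR adjusted p = 0.00313) in KD-labelled and -0.57 (edgeR adjusted p = 0.0362) in KD+Ccnb1-labelled cells. The counts alone do not tell whether a read came from the gene or from its copy, so the levels of these 5 genes are uncertain.

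**Figure D4:**
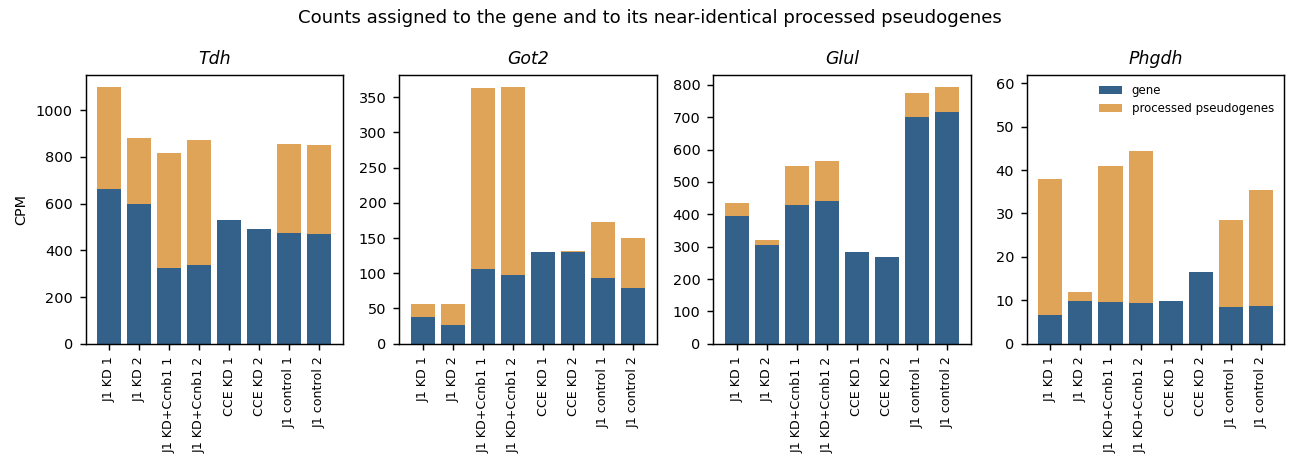
CPM per library on the gene (lower part of each bar) and on its processed pseudogenes (upper part) for Tdh, Got2, Glul and Phgdh, with KD-labelled, KD+Ccnb1-labelled, CCE and control libraries from left to right. For Got2 the copies hold 70.9% and 73.0% of the joint count in KD+Ccnb1-labelled libraries and under 1% in CCE libraries.

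Other genes of the same pathways, which are no members of the set of 33, were counted from lists chosen with earlier results of these data known. Of 39 other enzymes tested, 9 (23.1%) fell in KD-labelled cells against control, near the 17.9% of all genes, and none rose by edgeR, where 11.0% of all genes did (4 were higher at an unadjusted p under 0.05), with a median of -0.32, or -0.24 when genes with no count in a group were set to their bound. Gcsh, a further subunit of the glycine cleavage system, had 118 and 98.7 CPM in KD-labelled, 130.3 and 135 CPM in KD+Ccnb1-labelled and 250.1 and 274 CPM in control libraries. It lay below control in the KD-labelled and KD+Ccnb1-labelled groups, with -1.43 (SE 0.11, edgeR adjusted p = 0.00112) in KD-labelled and -1.06 (SE 0.11, edgeR adjusted p = 0.00341) in KD+Ccnb1-labelled cells. Mat2a (-1.07, edgeR adjusted p = 0.00609), Odc1 (-1.18, edgeR adjusted p = 0.0127) and Tyms (-1.22, edgeR adjusted p = 0.0156) also fell in KD-labelled cells. In KD+Ccnb1-labelled cells against control 5 of the 39 (12.8%) fell, where 10.5% of all genes did, and Arg2 rose. Arg2, the mitochondrial arginase, was at 12.6 and 15.6 CPM in KD+Ccnb1-labelled libraries and without a count in the KD-labelled and control libraries, which makes it at least 19.8-fold higher than control and at least 1.64-fold higher than KD-labelled, against a floor of 3 independent counts over the group.

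Of 33 other transporters tested, 7 (21.2%) fell and 2 (6.06%) rose in KD-labelled cells against control, where 17.9% and 11.0% of all genes did (median -0.15, or -0.03 with genes at 0 set to their bound), and the same numbers fell and rose in KD+Ccnb1-labelled cells against control, where 10.5% and 9.35% of all genes did (median -0.24). The 7 include Slc7a2, which had no count in KD-labelled libraries. Its control level of 3.69 CPM lay under the KD-labelled floor of 8.65 CPM, so its fall is not shown. Slc6a6, the taurine carrier, had 42.5 and 45.0 CPM in KD-labelled, 167 and 166 CPM in KD+Ccnb1-labelled and 136 and 137 CPM in control libraries, with -1.79 (SE 0.10, edgeR adjusted p = 0.000533) in KD-labelled cells against control. Slc38a7, a lysosomal glutamine carrier, rose in KD-labelled cells (1.30, SE 0.12, edgeR adjusted p = 0.00171). Sfxn1, the mitochondrial serine carrier, fell in KD-labelled (-1.69, SE 0.20, edgeR adjusted p = 0.00338) and KD+Ccnb1-labelled cells (-1.02, SE 0.19, edgeR adjusted p = 0.0177).

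Of 22 regulators and readouts of the ATF4 pathway, 9 (40.9%) rose and 3 (13.6%) fell in KD-labelled cells against control, where 11.0% and 17.9% of all genes did (median 0.50, and -0.08 over all genes tested). The list was chosen with earlier results of these data known, so these shares describe the list and test nothing. Some of its genes lay lower in both KD-labelled libraries than in control, such as Eif2s1 (98.7 and 78.4 against 165 and 175 CPM) and Ppp1r15b (236 and 230 against 294 and 310 CPM). Atf4 itself was at 1127 and 1038 CPM in KD-labelled, 408 and 383 CPM in KD+Ccnb1-labelled, 704 and 592 CPM in CCE and 731 and 756 CPM in control libraries. Ddit3, which encodes the stress factor CHOP, was at 684 and 491 CPM in KD-labelled, 32.5 and 29.0 CPM in KD+Ccnb1-labelled, 249 and 159.6 CPM in CCE and 12.9 and 19.1 CPM in control libraries. Both were highest in KD-labelled libraries. Against control, Ddit3 had 5.02 (SE 0.26, edgeR adjusted p = 0.000426) in KD-labelled cells, and Atf4 had 0.39 (SE 0.06, edgeR adjusted p = 0.00957) in KD-labelled and -0.99 (SE 0.06, edgeR adjusted p = 0.000941) in KD+Ccnb1-labelled cells. Between KD+Ccnb1-labelled and KD-labelled cells 8 of the 22 (36.4%) fell and 3 (13.6%) rose, where 16.0% and 22.8% of all genes did.

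The CCE libraries have no control of their own, were counted differently (the row of low-quality alignments held 0% of reads in them and 20.6% to 33.7% in J1 libraries) and are given as levels without a test. Both CCE libraries lay above all 6 J1 libraries for 11 of the 33 genes, where 19.5% of all genes did, and below all 6 for 5, where 19.0% of all genes did. The genes above were Asns, Phgdh, Mthfd1, Mthfd2, Got1, Got2, Cth, Slc7a11, Slc3a2, Slc1a4 and Slc38a2, and those below were Shmt2, Aldh18a1, Pycr1, Glul and Slc7a3. For Phgdh, Got2 and Tdh these positions depend on the reads that fell on processed pseudogenes, whose share was near 0% in CCE libraries only. With those reads added, 9 genes were above and 6 below, since Phgdh and Got2 lay within the range of the J1 libraries (11.96 to 44.4 CPM for Phgdh and 55.9 to 364 CPM for Got2) and Tdh, at 528 and 491 CPM in CCE libraries, lay below their 819 to 1098 CPM. Slc38a2 reached 1169 and 772 CPM in CCE libraries, against 354 to 612 CPM over the J1 libraries. Cth was at 108 and 96.1 CPM in CCE libraries, against 24.7 to 32.5 CPM over the J1 libraries. Shmt2 was at 101 and 108 CPM in CCE libraries, against 157 to 337 CPM over the J1 libraries. The line, the strain and the counting cannot be told apart in these differences.

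On the scale of CPM per kilobase of annotated exon, Tdh, Glul, Slc3a2 and Slc7a5 led in KD-labelled libraries with 241, 105, 103 and 87.5. The length joins all annotated exons of a gene and can exceed that of the transcript expressed, so the order between genes is approximate. In KD+Ccnb1-labelled libraries Slc7a5, Glul and Tdh led with 133, 131 and 126, and in CCE libraries Tdh, Asns and Slc3a2 with 195, 119.6 and 116. In control libraries Glul, Tdh, Slc7a5 and Shmt2 led with 213, 180.3, 137 and 108. With reads on processed pseudogenes added, Tdh led in every group, with 378 in KD-labelled, 323 in KD+Ccnb1-labelled, 195 in CCE and 327 in control libraries, and Glul came next in the J1 groups. Asns was next to the top in CCE libraries and at 57.7 in control. Slc7a11 and Aldh1l2 were the lowest of the 33 in all 4 groups. The 16 genes that fell in KD-labelled cells had a median GC content of 49.6%, against 47.7% for the 3 that rose, 53.4% for the 13 not called and 50.1% for all genes tested. The rank correlation of log2 fold change with GC content was 0.12 over the members and 0.08 over all genes in KD-labelled cells against control. It was -0.08 and -0.31 in KD+Ccnb1-labelled cells against control, and -0.11 and -0.28 in KD+Ccnb1-labelled against KD-labelled cells.

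The calls differ in how far they depend on the analysis. The alternatives refit the same J1 libraries or part of them, so the numbers below are not independent evidence for a call. Those without a KD-labelled library leave the spread of that group unmeasured. In counts simulated with the spread of each group, DESeq2 called 1442 unchanged genes between KD-labelled and control, and edgeR 1. Of 18 alternative analyses, all 18 called Glul, Bcat1, Slc7a3, Slc7a5 and Slc38a1 lower in KD-labelled cells than in control, 17 called Shmt1 and Slc7a6, and 16 called Shmt2, Got2 and Slc7a1 lower and Slc38a2 higher. Psat1 held in 13, Got1 in 12, Mthfd1l in 11, Asns in 8, Tdh in 7, Psph and Gldc in 5 and Mthfd2 in 4. Against control in KD+Ccnb1-labelled cells, all 18 called Bcat1 and Bcat2 lower, 16 called Shmt2, 14 called Mthfd2, Glul and Slc7a3, and 10 to 12 called Got1, Cbs, Tdh, Slc3a2, Aldh18a1 and Pycr1. Between KD+Ccnb1-labelled and KD-labelled cells, all 18 called Shmt1, Got2, Slc7a5, Slc7a6 and Slc38a1 higher and Bcat2 lower, and 17 called Slc7a1 higher and Cbs and Tdh lower. Without control replicate 1 or 2, the genes called lower in KD-labelled cells numbered 7 and 5, and without KD+Ccnb1-labelled replicate 1 or 2 they numbered 10 and 10. The genes called higher in KD-labelled cells numbered 0 without either control library, 1 without either KD+Ccnb1-labelled library, and 6 and 9 without KD-labelled replicate 1 or 2. The genes called lower in KD+Ccnb1-labelled cells than in control numbered 2 without either control library and 3 without either KD+Ccnb1-labelled library. Between KD+Ccnb1-labelled and KD-labelled cells, those called lower numbered 5 without either control library and 2 and 3 without KD+Ccnb1-labelled replicate 1 or 2, and those called higher numbered 14 without KD-labelled replicate 2 and 5 without KD+Ccnb1-labelled replicate 1.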

How the data were processed

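Each of 8 libraries has a deposited table of raw counts by Ensembl gene identifier. Its 5 rows of reads outside genes stayed out of library sizes and tests (no feature 11.9% to 13.9% of J1 reads and 48.5% and 49.5% of CCE reads, not unique 9.71% and 10.0% of CCE reads, and the unaligned and low-quality shares given above). Tools named in the submitters' processing notes are HTSeq 0.11.2 and SAMtools 1.9, Bowtie2 2.3.4.3, and edgeR 3.26.8, with build mm9. Their settings and strand handling are not given in the sources used here, so reads of overlapping genes cannot be separated. CCE and J1 tables differ in their summary rows, so CCE levels carry no test.

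Groups follow the labels. CPM are counts scaled to the gene total of a library. Tests were two-sided quasi-likelihood F tests in edgeR 4.0.16 (R 4.3.3) after TMM scaling and filterByExpr, from 1 fit over 6 J1 libraries, adjusted by Benjamini-Hochberg over 14462 genes and called at 0.05. Each SE is the size of the log2 fold change divided by the root of F. Alternatives used limma 3.58.1, DESeq2 1.42.0 and other settings, and 2 of the 18 (counts divided by the spread, retrocopy counts added) were chosen after the data were seen. Spread over Poisson noise was measured within each group. The floor behind a group at 0 was 3 counts times the spread over the group's total, or 8.65 CPM in KD-labelled, 0.456 CPM in KD+Ccnb1-labelled and 0.717 CPM in control libraries. Intervals and floors cover counting error only. Symbols were matched for 32620 gene identifiers. Processed pseudogenes of the members were found with BLAST 2.17.0 in GENCODE M21 transcripts, and GC content and length from that annotation covered 97.3% of genes tested. Promoter sequences are from RefSeq, build GRCm38.p6, not the build of the files.

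The members, lists and tests were chosen with earlier results of these data known. Values per library are given for the 12 called genes with the largest log2 fold change in KD-labelled libraries against control and the 6 in each other comparison, and for further members to show their calls. Deviations of same-numbered libraries had correlations of 0.03, 0.00 and -0.03 across genes, so no pairing by replicate number was seen. With 2 libraries per group and the wide spread of the KD-labelled libraries, these values cannot exclude a pairing.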

Additional observations from a re-analysis of the deposited data

How the results depend on the processing

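The 2 libraries per group, and the wide spread of the KD-labelled libraries, limit every comparison. In KD-labelled against control, 3 members higher became 6 with DESeq2 and 1 with no low-count filter, with only the 2 groups, with the replicate block, with the block and the GC and length offset, and with counts over the spread. The 16 lower became 10 with only the 2 groups. Genes called went to 1760 with only the 2 groups, 2631 with the replicate block and 2522 with the block and offset, against 4184. In KD+Ccnb1-labelled against control, members higher numbered 1 with DESeq2 and with retrocopies added, and 2 with limma, with only the 2 groups and with counts over the spread, against 0. Members lower numbered 7 with the replicate block and offset, 17 with limma and with only the 2 groups, and 18 with counts over the spread, against 12. Genes called were 4656 with DESeq2, 8608 with limma, 8658 with only the 2 groups, 8427 with counts over the spread and 1323 with the block and offset, against 2865. In KD+Ccnb1-labelled against KD-labelled, members lower numbered 6 with no filter and with the replicate block, 7 with only the 2 groups, with the offset and with counts over the spread, and 5 with the block and offset, against 11. Genes called were 3562 with the block and offset, against 5616. Of the genes called in KD-labelled against control, 38.0% were higher, and this was 51.5% with limma and 48.2% with a filter at 5 CPM. In KD+Ccnb1-labelled against KD-labelled the share was 58.7%, and 47.8% with limma and 49.0% with that filter. In KD+Ccnb1-labelled against control it was 47.2%, and 35.6% with the block and offset.

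Leaving out single libraries moved genes called over 701 to 10225 in KD-labelled against control, 254 to 8806 in KD+Ccnb1-labelled against control and 1674 to 11078 in KD+Ccnb1-labelled against KD-labelled. Members higher ran over 0 to 9, 0 to 2 and 5 to 14, and members lower over 5 to 19, 2 to 17 and 2 to 12, in the same order. Fewest genes were called without a control or KD+Ccnb1-labelled library, and most without a KD-labelled library, where the lone library is assumed to vary like the other groups. No pairing by replicate number was seen, which cannot exclude it.

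Of the single-gene values, 1376 kept direction and side of the threshold, 226 lost the call, 71 gained it and 48 changed sign, the cause of which was not tested. In KD-labelled against control, the log2 fold change was -0.0051 for Aldh18a1 with no low-count filter. With the offset it was -0.0433 for Aldh18a1 and -0.0525 for Slc1a5. With the replicate block and offset it was -0.039 for Aldh18a1 and -0.0781 for Slc1a5. With counts over the spread it was -0.04 for Aldh18a1. Leaving out single libraries gave -0.0983 to 0.0898 for Aldh18a1, -0.55 to 0.0164 for Phgdh and -0.32 to 0.34 for Slc1a5. In KD+Ccnb1-labelled against control, the log2 fold change was -0.0242 for Slc7a1 and -0.025 for Slc7a6 with upper-quartile scaling. With the filter at 5 CPM it was -0.005 for Slc7a1 and -0.0057 for Slc7a6. With only the 2 groups it was -0.0045 for Mthfd1, -0.0496 for Slc7a1 and -0.049 for Slc7a6. With the offset it was -0.30 for Slc7a1, 0.24 for Slc7a5, -0.11 for Slc7a6 and -0.28 for Slc38a2. With the replicate block and offset it was -0.30 for Slc7a1, 0.24 for Slc7a5, -0.11 for Slc7a6 and -0.28 for Slc38a2. With counts over the spread it was -0.0281 for Slc7a1 and -0.0214 for Slc7a6. Leaving out single libraries gave -0.0096 to 0.16 for Mthfd1, -0.44 to 0.0919 for Gpt2, -0.0094 to 0.05 for Slc7a1, -3.43 to 0.44 for Slc7a11, -0.20 to 0.32 for Psph and -0.0305 to 0.0682 for Slc7a6. In KD+Ccnb1-labelled against KD-labelled, the log2 fold change was -0.0211 for Cth with upper-quartile scaling. With the filter at 5 CPM it was -0.0084 for Cth. With the offset it was 0.18 for Shmt2, 0.15 for Got1 and -0.18 for Cth. With the replicate block and offset it was 0.18 for Shmt2, 0.15 for Got1 and -0.18 for Cth. Leaving out single libraries gave -0.0525 to 1.02 for Mthfd1l, -0.17 to 1.23 for Gpt2, -0.17 to 0.96 for Slc1a4 and -0.0705 to 0.0213 for Got1.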
